A study of Mus musculus with 6 samples.

Results

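Sox10, Mbp, Pmp22, Prx, S100b, Gfra3, Ngfr and Erbin were chosen as genes linked to Schwann cells, the glia that ensheath peripheral nerve fibres. Among them, Pmp22, Ngfr and Erbin are known from other cells as well. All 8 were followed here in the transcriptome of muscle stem cells (MuSCs) with and without Taf4a. The 8 genes were taken from the expression table by their symbols, all 8 were found among its 22081 genes, and all 8 had enough signal to be tested. The question was whether any of them differed in Taf4asKO MuSCs, and whether they rose and fell together from library to library, as RNA of a co-isolated cell type would.

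RNA-seq of freshly isolated MuSCs was available as 3 control and 3 Taf4asKO libraries from C57BL/6 mice. In Taf4asKO animals a tamoxifen-inducible Cre recombinase under Pax7 (Pax7CRE-ERT) removes floxed exons of Taf4a, whose current symbol is Taf4. The sample titles call the controls WT. The study describes its controls as littermates that carry the floxed Taf4a alleles too, and it lists wild type C57BL/6 mice separately. The labels do not say which of these the control libraries came from. They give neither the Cre allele nor the tamoxifen treatment of the controls. Adult mice of both sexes entered the study, and the labels give no age, sex or pool for a single library. The Cre is active in Pax7-expressing cells and their progeny, and was not designed to act in Schwann cells. Cells positive for SCA1, CD45 or CD31 were depleted and MuSCs were then sorted by integrin alpha 7 or a Pax7 reporter. No glial antigen was among those depleted. The study reanalysed sorted cells and reports a purity that was not complete, without a value for single libraries.

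Schwann cells arise from the neural crest and accompany every motor and sensory axon into muscle. Their identity depends on the transcription factor SOX10, axonal neuregulin keeps them alive through the receptor pair ERBB2 and ERBB3, and myelinating cells build a sheath from proteins such as PMP22, MBP and periaxin. Non-myelinating cells and cells responding to nerve injury are known instead for the neurotrophin receptor p75 (Ngfr), for adhesion molecules and for secreted trophic factors such as GDNF.

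Values are normalized counts, that is, reads per gene divided by a size factor of the library and rounded to whole numbers. Totals per library were 12338676 to 14551732, and the size factors estimated from the spacing of these values ranged from 0.857 to 1.33. Differences were tested with limma on log2(value + 1) over 18562 genes, and a gene was called when its p, adjusted by Benjamini-Hochberg over these genes, was under 0.05 and it differed 1.3-fold or more. Taf4 itself, summed over all exons, had normalized counts of 613, 534 and 478 in controls and 631, 565 and 574 in Taf4asKO, so the gene total did not separate the labels (log2 fold change 0.13, SE 0.12, limma adjusted p = 0.524). The sum includes exons outside the deleted part and therefore does not check the deletion. Pax7, the defining transcription factor of MuSCs, stood at 12082 to 13007 in controls and 10363 to 11164 in Taf4asKO (limma adjusted p = 0.161). The 8 MuSC markers summed to 38984 to 41590 in controls and 39707 to 41607 in Taf4asKO. Myf5 fell by 0.85, Cdh15 by 0.52 and Itga7 by 0.43 on the log2 scale, and Vcam1 (0.74) and Sdc4 (0.88) rose. Leaving out any 1 Taf4asKO library turned these 5 calls into 2 higher and 1 lower.

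Of the 8 genes, 4 passed the test in Taf4asKO MuSCs. Sox10, Mbp and Pmp22 were higher and Ngfr was lower, while Prx, Gfra3, S100b and Erbin did not pass. Across all tested genes 12.6% passed, 5.93% upward and 6.71% downward. At an unadjusted p under 0.05 stood 6 of the 8, beside 28.8% of all tested genes, a share that is also the background of such counts in the lists given later. The median log2 fold change of the 8 genes was 0.53, beside 0.00 over all tested genes, and 7 of the 8 lay above 0, as did 50.4% of all tested genes. The groups did not overlap upward in 5 of the 8, against 16.6% of all tested genes, and downward in 1, against 16.4%. In bulk RNA, more cells of a type and more RNA per cell cannot be told apart.

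**Figure D1:**
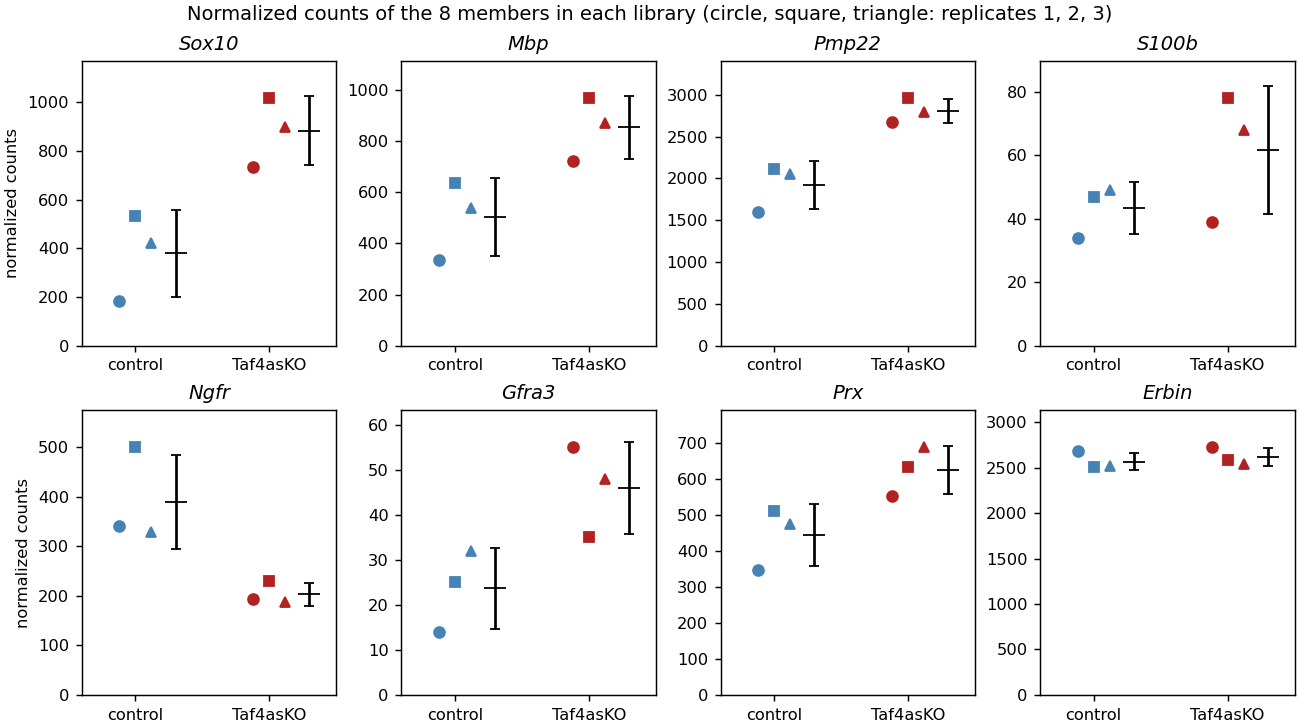
Normalized counts of the 8 genes (y axis, starting at 0 in each panel) in the 3 control (blue) and 3 Taf4asKO libraries (red), with circle, square and triangle for replicates 1, 2 and 3 and the mean ± SD in black. In Sox10, Mbp, Pmp22, Prx and Gfra3 all 3 Taf4asKO values lay above the controls, in Ngfr all 3 lay below, and in S100b and Erbin the groups overlapped.

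Sox10 (ENSMUSG00000033006, chr15:79154913-79164490, minus strand) encodes the transcription factor that specifies and maintains the Schwann lineage. Control replicates 1, 2 and 3 held 185, 534 and 420 normalized counts of it, and Taf4asKO replicates 1, 2 and 3 held 734, 1016 and 900. Values of other genes are given in this order. All Taf4asKO libraries were above all controls, and control replicate 1 was far below the other controls, which spread 2.89-fold against 1.38-fold in Taf4asKO. The means of 379.7 ± 178 and 883 ± 142 (SD, n = 3 each) differed by a log2 fold change of 1.34 (SE 0.32, 95% interval 0.63 to 2.04, limma adjusted p = 0.0227). Without control replicate 1 the log2 fold change was 0.89. The call was lost without Taf4asKO replicate 1, 2 or 3 (limma adjusted p = 0.0559, 0.0975 and 0.0799), within a range of 0.000447 to 0.0975 over all alternatives.

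Among the structural genes of myelin, Mbp (ENSMUSG00000041607) encodes myelin basic protein, which compacts the cytoplasmic faces of the sheath. It gave 336, 635 and 538 normalized counts in controls and 723, 966 and 870 in Taf4asKO. The order of libraries matched that of Sox10 in both groups, with control replicate 1 lowest and replicate 2 highest, and the groups did not overlap. Means were 503 ± 153 and 853 ± 122 (SD, n = 3 each), with a log2 fold change of 0.80 (SE 0.21, 95% interval 0.33 to 1.27, limma adjusted p = 0.0342). Leaving out control replicate 1 gave 0.53, and the call was lost without it, without control replicate 3 and without each Taf4asKO library (limma adjusted p from 0.0504 to 0.140, within a range of 0.000971 to 0.140 over all alternatives). Mbp is also a myelin gene of oligodendrocytes. Of 6 oligodendrocyte markers Mog and Cldn11 were in the table, with sums of 8 to 20 normalized counts in controls and 12 to 20 in Taf4asKO, and the part of such cells in Mbp was not tested. A pseudogene, Rpl21-ps8, lies within Mbp on the opposite strand and the sources do not say whether reads were assigned by strand, which holds for each overlap given here.

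Pmp22 (ENSMUSG00000018217, chr11:63128982-63159547, plus strand) encodes peripheral myelin protein 22, a dose-sensitive membrane protein of compact myelin that other tissues also express. Normalized counts were 1594, 2115 and 2051 in controls and 2677, 2959 and 2791 in Taf4asKO. Every Taf4asKO library exceeded every control, and control replicate 1 was again the lowest library. Means rose from 1920 ± 284 to 2809 ± 142 (SD, n = 3 each), a log2 fold change of 0.56 (SE 0.12, 95% interval 0.29 to 0.82, limma adjusted p = 0.0142). The call was lost without Taf4asKO replicate 2 or 3 (limma adjusted p = 0.0799 and 0.0608, range over all alternatives 0.00204 to 0.0799).

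Prx (ENSMUSG00000053198, chr7:27499324-27520214, plus strand) encodes periaxin, the scaffold that links the outer Schwann cell membrane to dystroglycan through DRP2. Its normalized counts were 348, 510 and 476 in controls and 554, 632 and 688 in Taf4asKO. The groups did not overlap, and control replicate 1 was the lowest library. With means of 445 ± 85.4 and 625 ± 67.3 (SD, n = 3 each), the log2 fold change was 0.50 (SE 0.16, 95% interval 0.16 to 0.85, limma adjusted p = 0.0602). Prx thus missed the threshold. It passed once the replicate number entered the model as a block (limma adjusted p = 0.00983), a fit in which 5 of the 8 genes passed, 4 of them upward, beside 18.1% of all tested genes and 9.09% upward. It also passed with values rescaled to the library total (0.0372) and without control replicate 2 (0.0302), in a range of 0.00983 to 0.214 over all alternatives. The gene model Gm15541 overlaps Prx on the opposite strand.

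S100b (ENSMUSG00000033208, chr10:76253853-76261159, plus strand), a calcium-binding protein widely used to stain Schwann cells, had 34, 47 and 49 normalized counts in controls and 39, 78 and 68 in Taf4asKO. Taf4asKO replicate 1 fell among the controls and the groups overlapped. Means of 43.3 ± 8.14 and 61.7 ± 20.3 (SD, n = 3 each) gave a log2 fold change of 0.46 with an interval from -0.20 to 1.12 (SE 0.30, limma adjusted p = 0.343). Dip2a overlaps S100b on the opposite strand.

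The growth factor receptors of the set were Ngfr and Gfra3. Ngfr (ENSMUSG00000000120, chr11:95568818-95587735, minus strand) encodes p75, the low-affinity receptor of all neurotrophins, which marks neural crest derivatives and immature or injured Schwann cells and is also made by muscle precursors. It had 341, 500 and 330 normalized counts in controls and 193, 230 and 187 in Taf4asKO. All Taf4asKO values lay below all controls, and control replicate 2, not replicate 1, stood apart among the controls. Means fell from 390.3 ± 95.1 to 203 ± 23.3 (SD, n = 3 each), a log2 fold change of -0.92 (SE 0.18, 95% interval -1.31 to -0.53, limma adjusted p = 0.00871). Ngfr passed whichever library was left out, with log2 fold changes from -1.02 to -0.73.

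Gfra3 (ENSMUSG00000024366) encodes the receptor of artemin, which signals through RET, and is a marker of Schwann cell precursors and of some sensory neurons. Like S100b it rested on few reads, with 14, 25 and 32 normalized counts in controls and 55, 35 and 48 in Taf4asKO. The groups did not overlap, although the margin between control replicate 3 and Taf4asKO replicate 2 was 32 against 35. From means of 23.7 ± 9.07 and 46.0 ± 10.1 (SD, n = 3 each), the log2 fold change of 0.98 did not pass (SE 0.34, 95% interval 0.21 to 1.75, limma adjusted p = 0.0907).

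Erbin (ENSMUSG00000021709, chr13:103818787-103920514, minus strand) encodes a scaffold that binds ERBB2 at the cell membrane and is found in many cell types. It had 2679, 2506 and 2516 normalized counts in controls and 2724, 2586 and 2541 in Taf4asKO. Values were close together in all 6 libraries, spread 1.07-fold in each group, and the groups overlapped. The log2 fold change was 0.03 (SE 0.09, 95% interval -0.17 to 0.22, limma adjusted p = 0.870), so the interval stayed inside the 1.3-fold limit on both sides.

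**Figure D2:**
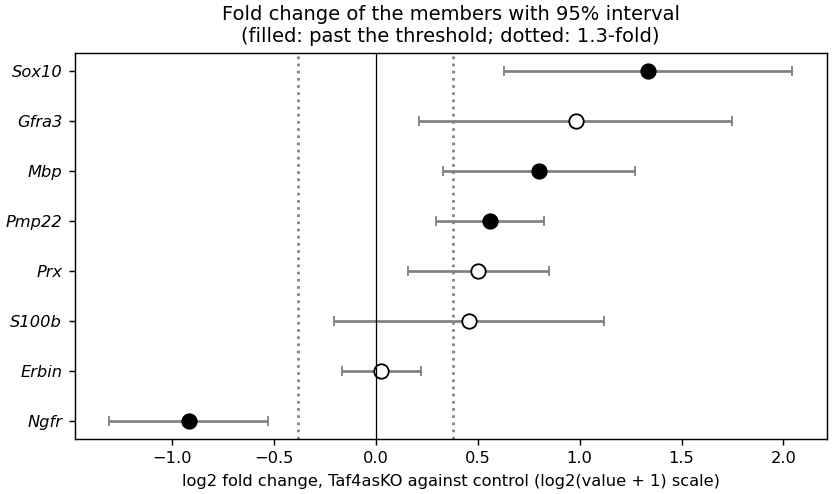
Log2 fold change of Taf4asKO against control on the log2(value + 1) scale (x axis) for the 8 genes (y axis), with 95% intervals from limma, filled points past the threshold and dotted lines at 1.3-fold. Sox10 stood highest at 1.34 and Ngfr lowest at -0.92, and the interval of Erbin, -0.17 to 0.22, lay between the dotted lines.

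Levels between genes were compared per kilobase of exon. In controls the mean normalized count per kilobase was 816 for Pmp22, 323 for Erbin, 124 for Sox10, 113 for Ngfr, 79.7 for Prx, 59.4 for Mbp, 29.2 for S100b and 11.9 for Gfra3. In Taf4asKO the same quantity was 1193 for Pmp22, 330 for Erbin, 290 for Sox10, 112 for Prx, 101 for Mbp, 59.0 for Ngfr, 41.6 for S100b and 23.0 for Gfra3, so Ngfr moved below Prx and Mbp in the order. Exon length was taken over all annotated transcripts, which for Mbp includes long transcripts that Schwann cells need not make.

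The promoters of Pmp22, Prx, S100b, Ngfr and Erbin are shown because only these members had one in the source used. Sox10, Mbp and Gfra3 could not be searched. Each printed window carries one or the other of 2 short motifs that bear on TAF4A. CCAAT is the box bound by NF-Y and appears as ATTGG where it lies on the opposite strand. GGGCGG is the box bound by SP1 and appears as CCGCCC on the opposite strand, and the study examined TAF4A together with both factors. The windows of 150 bases come from RefSeq promoters on GRCm38.p6, end at or before the annotated transcription start, run 5′ to 3′ on the strand of the gene, and carry the motifs in capitals, with ACAAT, a SOX core motif, also in capitals in Erbin. Of the 8 genes, 5 had a promoter there, and for Pmp22 the first of 4 starts is printed.
Pmp22 (chr11:63128832-63128981, plus strand): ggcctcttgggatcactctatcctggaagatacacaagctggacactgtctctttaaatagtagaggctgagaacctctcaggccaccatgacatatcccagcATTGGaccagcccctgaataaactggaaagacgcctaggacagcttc
Prx (chr7:27499174-27499323, plus strand): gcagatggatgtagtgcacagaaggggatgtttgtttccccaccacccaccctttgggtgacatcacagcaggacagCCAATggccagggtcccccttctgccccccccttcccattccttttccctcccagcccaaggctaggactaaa
S100b (chr10:76253686-76253835, plus strand): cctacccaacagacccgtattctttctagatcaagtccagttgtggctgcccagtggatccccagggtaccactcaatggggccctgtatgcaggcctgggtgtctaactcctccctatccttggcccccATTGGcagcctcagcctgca
Ngfr (chr11:95587737-95587886, minus strand): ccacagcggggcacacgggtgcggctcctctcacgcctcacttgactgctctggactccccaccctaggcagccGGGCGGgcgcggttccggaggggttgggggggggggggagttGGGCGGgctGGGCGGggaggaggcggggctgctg
Erbin (chr13:103920625-103920774, minus strand): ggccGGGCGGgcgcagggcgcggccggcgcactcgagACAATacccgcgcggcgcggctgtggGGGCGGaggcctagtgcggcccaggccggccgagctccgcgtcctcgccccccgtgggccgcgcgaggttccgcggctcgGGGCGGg

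In the full 250 bases before the start, the printed Pmp22 start and Prx held 1 CCAAT and S100b held 2, without GGGCGG in any of them. Ngfr held 4 GGGCGG and no CCAAT, and Erbin held 3 GGGCGG. Of 32851 promoters of the same length, 33.8% held CCAAT and 32.7% held GGGCGG on either strand, so each box is common. Among the other Pmp22 starts, the second had 1 CCAAT and 3 GGGCGG, the third neither and the fourth 3 GGGCGG, and the table does not tell which start was used. Both SOX core motifs searched, ACAAAG (16.5% of promoters) and ACAAT (27.7%), were absent from these windows except for 1 ACAAT in Erbin.

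To ask whether the genes moved together, their libraries were ordered within each group. Control replicate 1 was the lowest control in 6 of the 8 genes, all but Ngfr and Erbin, against 32.2% of all tested genes. Control replicate 2 was the highest control in 5 (40.4% of all tested genes) and Taf4asKO replicate 2 the highest of its group in 5 (30.6%). Because the groups hold 3 libraries each, these orders are a description and have no test.

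A list of defining Schwann markers was read beside the members. Of 12 such genes 11 could be tested, 6 were called higher and 0 lower, all 11 had a log2 fold change above 0, and the median was 1.16. Besides Sox10, the higher genes included Cdh19, a cadherin of Schwann cell precursors (129, 269 and 257 against 537, 714 and 539), Foxd3, a neural crest transcription factor (42, 104 and 107 against 159, 217 and 250), and Erbb3, the neuregulin receptor (262, 765 and 609 against 1017, 1380 and 1141). Control replicate 1 was lowest among controls in 11 of 11.

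The 5 other tested markers did not pass, namely Mag (21, 59 and 46 against 67, 74 and 65), Ncmap (31, 64 and 47 against 72, 83 and 92), Gldn (37, 63 and 50 against 66, 78 and 94), Fabp7 (9, 38 and 21 against 52, 38 and 49) and Dhh (48, 57 and 65 against 82, 66 and 80). With the replicate block Ncmap passed as well, which made 7 calls. Gfap, found in non-myelinating Schwann cells, was too low to test with 2, 2 and 4 against 0, 2 and 4. The summed level of the 12 markers was 1389, 3629 and 2802 in controls and 4770, 5874 and 5450 in Taf4asKO, a 2.06-fold difference between means that became 1.67-fold without control replicate 1. Controls alone spread 2.61-fold. The 6 calls became 10 without control replicate 2, 2 without Taf4asKO replicate 1 and 1 without replicate 2 or 3, with all 11 above 0 each time, and the median was 0.68 without control replicate 1.

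**Figure D3:**
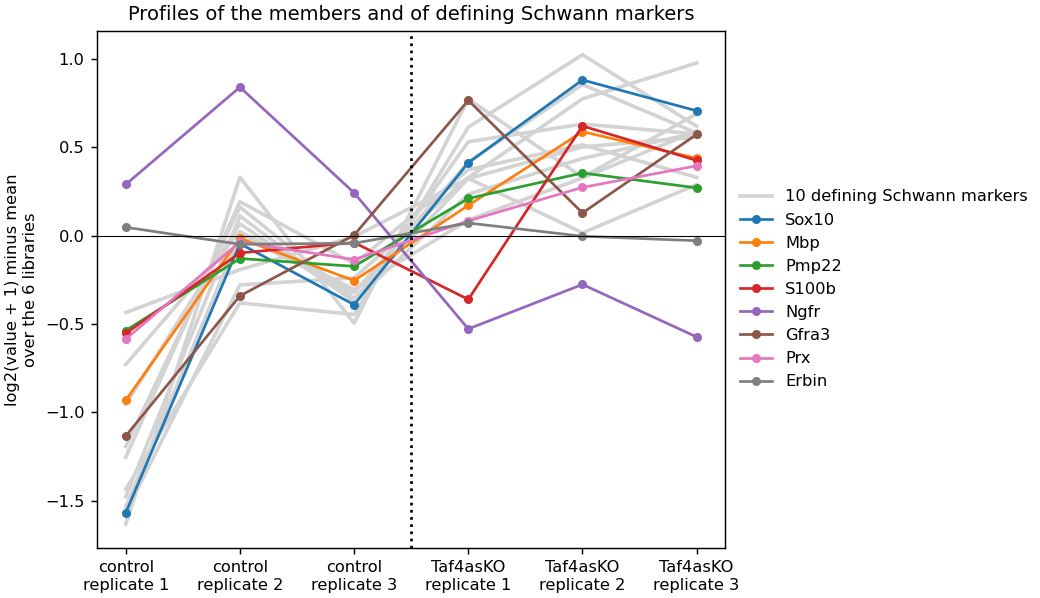
Log2(value + 1) of each gene minus its mean over the 6 libraries (y axis) in each library (x axis) for the 8 genes (colours) and 10 further defining Schwann markers (grey). The grey lines share a low point in control replicate 1, as do Sox10, Mbp, Pmp22, Prx, S100b and Gfra3. Ngfr was highest in control replicate 2 and Erbin stayed near 0.

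How far each gene kept step with the Schwann markers was described by its ratio to their sum in the same library, over the 11 defining markers other than Sox10. These ratios are not corrected for exon length and are compared only between libraries. Sox10 amounted to 15.4%, 17.3% and 17.6% of that sum in controls and to 18.2%, 20.9% and 19.8% in Taf4asKO. The ratio spread 1.36-fold over the 6 libraries, whereas Sox10 itself spread 5.49-fold. This ratio was higher in all Taf4asKO libraries than in any control, by 1.17-fold between means. For comparison, Erbb3 against the other markers spread 1.43-fold, although its own values spread 5.27-fold. Dhh, also a defining marker, went the other way, with a 3.01-fold spread of the ratio against 1.71-fold for its value. A ratio that varied more than the gene was therefore seen within the defining markers too.

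Mbp amounted to 27.9%, 20.5% and 22.6% of the sum in controls and 17.9%, 19.9% and 19.1% in Taf4asKO. Its ratio spread 1.56-fold and its value 2.88-fold, and the ratio was lower in all Taf4asKO libraries than in any control. Gfra3 gave 1.16%, 0.81% and 1.34% against 1.36%, 0.72% and 1.05%, with overlapping groups, and spread 1.89-fold against 3.93-fold for its value. In these 3 genes the ratio to the Schwann sum therefore varied less than the gene.

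The opposite held for the other 5 genes. Pmp22 amounted to 132%, 68.3% and 86.1% of the sum in controls and to 66.3%, 60.9% and 61.3% in Taf4asKO, a 2.17-fold spread against 1.86-fold for its value. Prx gave 28.9%, 16.5% and 19.98% against 13.7%, 13.01% and 15.1%, spread 2.22-fold against 1.98-fold. Within the Taf4asKO libraries both ratios were close together, and in control replicate 1 both were highest.

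S100b (2.82%, 1.52% and 2.06% against 0.97%, 1.61% and 1.49%) spread 2.92-fold as a ratio against 2.29-fold as a value. Ngfr had the widest spread of the ratio among the members, from 28.3%, 16.2% and 13.9% in controls to 4.78%, 4.73% and 4.11% in Taf4asKO. The spread of its ratio was 6.89-fold against 2.67-fold for its value. Erbin stood at 223%, 81.0% and 106% against 67.5%, 53.2% and 55.8%, and spread 4.18-fold as a ratio and 1.09-fold as a value.

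**Figure D4:**
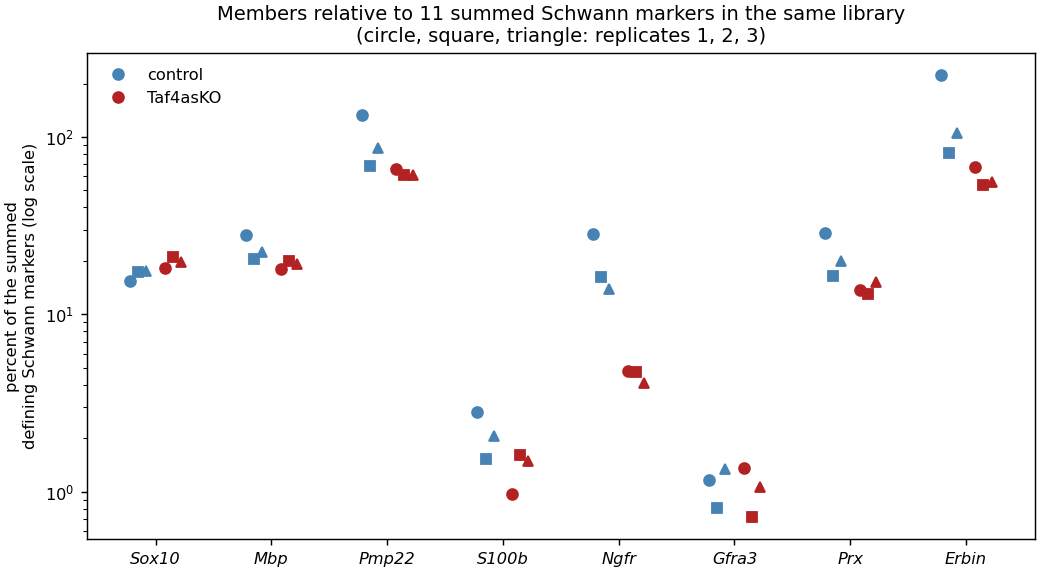
Each of the 8 genes as a percent of the sum of 11 defining Schwann markers in the same library (y axis, log scale), in control (blue) and Taf4asKO (red), with circle, square and triangle for replicates 1, 2 and 3. Sox10 lay at 15.4% to 17.6% in controls and 18.2% to 20.9% in Taf4asKO, while Ngfr dropped from 13.9% or more in controls to 4.78% or less in Taf4asKO.

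The genes nearest to each profile were searched among 12307 genes by the root mean square difference of centred log2 values over the 6 libraries. Sox10 was closest to Erbb3 (0.06), Acsbg1 (0.07) and Kcna2 (0.08), and Mbp to Inpp4b (0.05), St6gal1 (0.07) and Epas1 (0.08). Prx was closest to Ttc8 (0.03), Uaca (0.04) and Cd109 (0.05), and Pmp22 had Eif2ak2 and Btbd3 among its nearest (0.04 each). Ngfr had as its neighbours Kif20b, a mitotic kinesin (0.05), Mcm6, a subunit of the replicative helicase (0.06), and Asb2 (0.07). Erbin was closest to Furin, Atrx and Nipbl (0.02 each), S100b to Map3k7cl (0.10), Zkscan7 (0.11) and Mblac2 (0.11), and Gfra3 to Gja1 (0.12), Unc5b (0.15) and Osgepl1 (0.18), the loosest neighbours of the 8 genes, which are also its lowest counts.

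In a wider list of 63 Schwann and glial genes, 58 were tested, 23 were called higher and 4 lower, and the median log2 fold change was 0.81. Counted without the members, 20 of 51 were higher and 3 lower, with a median of 0.82. The total of 27 calls became 42 without control replicate 2, 15 without Taf4asKO replicate 1, 9 without replicate 2 and 13 without replicate 3. With the replicate block 31 were higher and 4 lower. The lower genes were Ngfr, Drp2, Mpzl2 and Gdnf, and 4 genes were called lower in each of these fits.

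Regulators and early glial genes gave 8 higher and 0 lower of 19 tested. Besides Sox10, Foxd3, Erbb3 and Cdh19, the list included Nab2 (log2 fold change 0.71) and Nab1 (0.49), co-factors of EGR proteins, and Gpr37l1 (1.44), a glial receptor. Egr2, the transcription factor that starts myelination and is also an immediate early gene, did not follow, with 2015, 1249 and 1666 normalized counts in controls and 2865, 1205 and 1276 in Taf4asKO (limma adjusted p = 0.971). The 8 calls became 4 without Taf4asKO replicate 1 or 3 and 1 without replicate 2.

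Of 23 tested myelin genes 9 were higher and 2 lower. Ndrg1, whose loss causes a demyelinating neuropathy, rose by a log2 fold change of 1.17, Adgrg6, a receptor needed to begin myelination, by 1.03, Cadm4, an adhesion molecule of the internode, by 0.96, and Gjc3, a glial connexin, by 1.22. Drp2, the dystroglycan-linked partner of periaxin, went the other way, from 10622, 8709 and 10257 to 6639, 6496 and 6159 (log2 fold change -0.61, limma adjusted p = 0.00484), with no overlap between the groups. Mpzl2 fell by 1.73. With the replicate block 14 myelin genes were higher and 2 lower. The 11 calls became 20 without control replicate 2 and 6, 4 and 5 without Taf4asKO replicates 1, 2 and 3, and 7 without control replicate 3.

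Among non-myelinating and repair genes, 6 of 17 were higher and 2 lower, and the median of 0.86 became 0.56 without control replicate 1. Scn7a, a sodium channel subunit of non-myelinating Schwann cells, rose from 466, 619 and 405 to 1601, 1396 and 1455 (log2 fold change 1.60, limma adjusted p = 0.000234). L1cam (1.28) and Chl1 (1.41), which are adhesion molecules, and Atp1b2 (0.91), a sodium pump subunit of glia, were higher as well. Gdnf, a trophic factor that injured Schwann cells secrete, fell with Ngfr, from 64, 38 and 41 to 13, 13 and 7 (log2 fold change -2.03). The 8 calls became 12 without control replicate 2, 5 without Taf4asKO replicate 1 and 4 without replicate 2 or 3.

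The receptor and ligand families of Erbin, Ngfr and Gfra3 gave 6 higher and 7 lower of 44 tested, with a median of -0.01 that ranged from -0.09 to 0.02 with 1 library left out, and the 13 calls became 8 without Taf4asKO replicate 3. In the ErbB family 4 of 17 were higher and 2 lower. Errfi1, an inhibitor of the EGF receptor, rose by 1.47, Adam17, a protease that sheds ErbB ligands, by 0.62, and Lrig1, a negative regulator of ErbB receptors, by 0.40, while Dlg4 (-0.71) and Pkp4 (-0.73), a catenin that binds ERBIN, were lower. Erbb2, with 521, 488 and 467 against 434, 440 and 408, did not pass (log2 fold change -0.20, limma adjusted p = 0.242), and the 6 ErbB calls became 4 without Taf4asKO replicate 1 or 2 and 2 without replicate 3.

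Neurotrophin genes were called in 4 of 18. Ntrk2, the receptor of BDNF (119, 255 and 226 against 341, 517 and 450, log2 fold change 1.17), and Sorcs1 (1.33) were higher, while Ngfr and Sorcs2 (-0.82), receptors that can act together, were lower. Both upward calls were lost without Taf4asKO replicate 2, which left 2 calls.

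Of 9 GDNF family genes 3 were lower and 0 higher, and the median was -1.02, or -0.65 without Taf4asKO replicate 3. Ret, the signalling receptor of the family, fell from 1747, 2501 and 1065 to 409, 392 and 335 (log2 fold change -2.14, limma adjusted p = 0.000797), and Gfra1, the co-receptor of GDNF, from 963, 1454 and 886 to 561, 612 and 432 (-1.02, limma adjusted p = 0.00795). Gfra3 was thus above 0 in a family whose called members were lower. Gfra2 was above 0 too, without a call (log2 fold change 0.60, limma adjusted p = 0.0664). With the replicate block 4 GDNF genes were lower and 1, Gfra2, was higher (limma adjusted p = 0.0270). Gfra3 did not pass with the block (limma adjusted p = 0.0633). In the fit without the block, 6 of the 9 had an unadjusted p under 0.05, beside 28.8% of all tested genes.

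**Figure D5:**
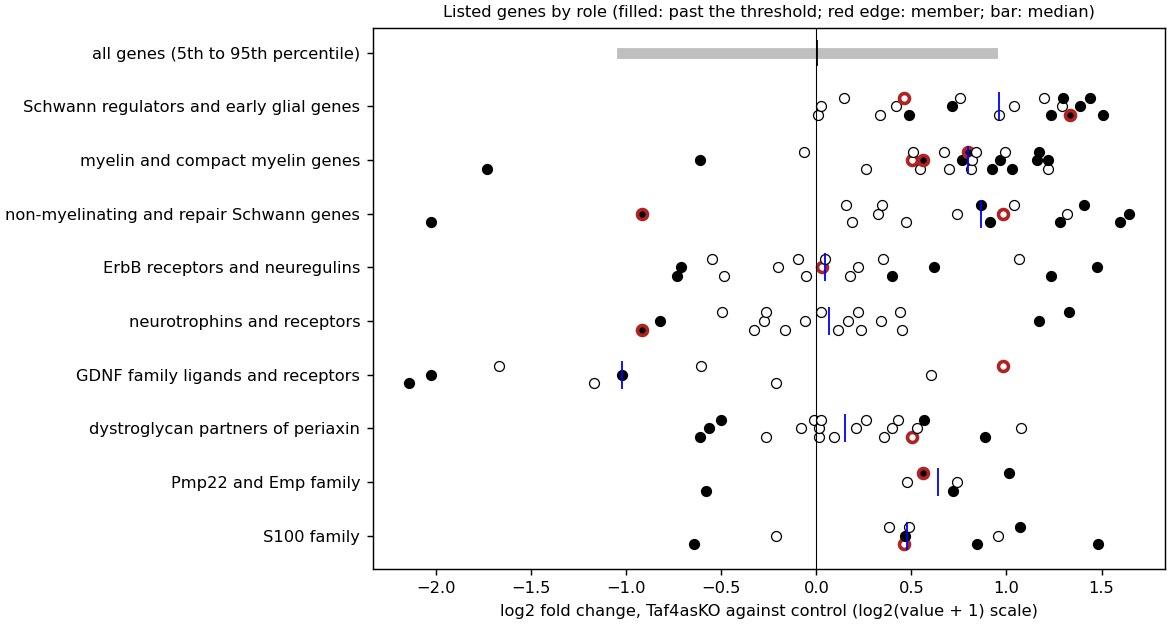
Log2 fold change of Taf4asKO against control (x axis) for each tested gene of 9 lists by role (rows), with filled points past the threshold, a red edge for the 8 genes, a blue bar at the median of each list and a grey bar from the 5th to the 95th percentile of all tested genes. The medians of the 3 Schwann lists were 0.96, 0.80 and 0.86, that of the GDNF family -1.02 and that of all genes 0.00. Without control replicate 1 the third Schwann median was 0.56, and without Taf4asKO replicate 3 that of the GDNF family was -0.65.

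Gene families of the members were mixed. Among 6 relatives of Pmp22, Pmp22, Emp1 (log2 fold change 1.01) and Tmem47 (0.72) were higher and Emp3 (-0.58) lower, and the 4 calls became 2 without Taf4asKO replicate 1 or 2 and 1 without replicate 3. In the S100 family S100a1 (1.48), S100a13 (1.07), S100a6 (0.85) and S100a10 (0.47) were higher and S100a16 (-0.64) lower among 10 tested, and the 5 calls became 3 without Taf4asKO replicate 1 or 2. Dystroglycan partners of periaxin gave 2 higher, Sntb2 (0.57) and Lama4 (0.89), and 3 lower, Drp2, Dmd (-0.56) and Dtnb (-0.50), of 20. With the replicate block 6 of these 20 were higher and 3 lower, and without control replicate 2 the counts were likewise 6 and 3, whereas without a Taf4asKO library they were 1 and 2.

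Markers of other cells were measured beside these results, and several of these lists also lay above 0. The median log2 fold change was 0.96 for the endothelial markers (8 of 8 above 0), 1.11 for tenocyte markers (6 of 6), 0.83 for fibro-adipogenic markers (6 of 8) and 0.62 for smooth muscle and pericyte markers (6 of 8), beside 1.16 for the defining Schwann markers (11 of 11). It was 0.20 for myofibre markers (6 of 8), -0.29 for haematopoietic markers (1 of 4), 0.39 for neuron markers (2 of 2) and 0.20 for oligodendrocyte markers (1 of 2). With 1 library left out at a time, the median was lowest without control replicate 1 and highest without replicate 2 or 3 in most lists. It ran from 0.48 to 1.23 (without control replicate 2) for endothelial markers and from 0.38 to 1.79 (without control replicate 3) for tenocyte markers. The range was 0.31 to 1.19 for fibro-adipogenic and 0.36 to 0.78 for smooth muscle and pericyte markers, both highest without control replicate 3, and 0.68 to 1.51 for the Schwann markers, highest without control replicate 2. Myofibre markers went from -0.16 without control replicate 1 to 0.50 without replicate 2, and haematopoietic markers from -0.04 to -0.62 in the same fits. Neuron markers went from 0.15 without control replicate 1 to 0.75 without replicate 3, and oligodendrocyte markers from -0.01 without control replicate 2 to 1.18 without replicate 3. The 8 endothelial markers were lowest among controls in control replicate 1 in 8 of 8, summed to 915 to 1372 in controls and 1489 to 1952 in Taf4asKO, and gave 0 calls with limma or limma-voom, although 6 had an unadjusted p under 0.05 (28.8% of all tested genes). The 8 markers of smooth muscle and pericytes gave 2 higher, Rgs5 (1.06) and Myh11 (0.69), with sums of 25670 to 30608 and 26506 to 31324, and control replicate 1 was the lowest control in 6 of 8. Their 2 calls became 1 without Taf4asKO replicate 1, 0 without replicate 2 or 3, 5 higher without control replicate 3, and 3 higher and 1 lower without control replicate 2. Leaving out control replicate 2 or 3 gave 1 endothelial call, higher. With the replicate block 3 endothelial and 6 smooth muscle and pericyte markers were higher. Fibro-adipogenic markers summed to 55604 to 81847 and 33884 to 56229, with Col3a1 and Dpt lower, the other 6 markers above 0 without a call, and control replicate 1 the lowest control in 8 of 8. With the block 5 of them were higher and 2 lower, and without control replicate 3 these counts were 1 and 2.

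Tenocyte markers summed to 2055, 5937 and 14220 in controls and 7109, 16299 and 14579 in Taf4asKO, with control replicate 1 the lowest control in 5 of 6, and gave 0 calls of 6 with limma or limma-voom, 0 at an unadjusted p under 0.05 and 4 higher with the block or without control replicate 3. The 8 myofibre markers summed to 2211 to 6010 and 2610 to 3221, with Atp2a1 lower and control replicate 1 the lowest control in 7 of 8, and gave 2 higher and 1 lower without control replicate 2. Of 8 haematopoietic markers 4 were in the table, with Ptprc, Adgre1, Itgam and Cd3e not among its genes. Those 4 summed to 469 to 581 and 696 to 942. Lyz2 had 94, 357 and 320 against 465, 729 and 483 (limma adjusted p = 0.0699), and the other 3 were below 0. The list gave 0 calls with limma or limma-voom and 2 at an unadjusted p under 0.05, and 1 was higher with the block or without control replicate 2. Neuron and oligodendrocyte markers summed to 26 to 100 and 8 to 20 in controls and 54 to 76 and 12 to 20 in Taf4asKO, with 0 of 2 tested called in each list and 0 at an unadjusted p under 0.05 by limma, and 0 by limma-voom. The part of any of these cells in the values of Sox10, Mbp, Pmp22, Prx, S100b, Gfra3, Ngfr or Erbin was not tested.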

How the data were processed

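RNA of sorted MuSCs was sequenced in 3 control and 3 Taf4asKO libraries, grouped by their titles. Single-end reads had been trimmed (Trimmomatic 0.39) and aligned to mm10 (STAR 2.6.0c) by the authors, who removed multi-mapping reads, counted exonic reads of single genes with featureCounts 1.6.0 and normalized with DESeq2 1.14.1. The deposited values are therefore a score, namely reads divided by a size factor and rounded by the authors, not raw counts. Size factors estimated from the spacing of the values were 0.857 to 1.33.

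Genes with a mean of at least 5 entered a two-sided limma test (version 3.58.1, R 4.3.3, with trend) on log2(value + 1) without covariates, which understates changes of low genes. limma-voom on estimated reads was an alternative. The test was checked on simulated data. The members and gene lists were chosen with earlier results of these data known. Named genes are the members, the called genes of each list (at most the 6 of smallest p), its 3 highest genes, the defining Schwann markers and the 3 genes nearest each member. Gjc3, Chl1, Erbb2, Mog, Cldn11 and the haematopoietic genes missing from the table were named after their values were seen. Some genes that the rule would name are not reported here, although the counts and sums of their lists include them.

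Samples with the same replicate number deviated together from their group means (correlations over genes 0.23, 0.13 and 0.15 for numbers 1 to 3), so the block on the number was read as a pairing that comes from the data, since the labels do not say what the number marks. The labels do not state that replicates came from separate animals, so p-values measure the spread between these libraries. No pair of libraries was alike to within counting error, with a chi-square of at least 4.12 for each degree of freedom. Gene positions are those of the table (mm10), and exon lengths are from GENCODE M21.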

Additional observations from a re-analysis of the deposited data

How the results depend on the processing

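The direction of each of the 8 genes was the same under each alternative run for it with 1 exception, Erbin without Taf4asKO replicate 1 (log2 fold change -0.0013). Without 1 library at a time, the number of all genes past the threshold ranged from 956 to 3096, of members from 1 to 5, of listed Schwann and glial genes from 9 to 42 and of listed receptor and ligand genes from 8 to 15. In the same fits the log2 fold change of Sox10 ranged from 0.89 to 1.65, of Mbp from 0.53 to 0.99, of Pmp22 from 0.43 to 0.63, of S100b from 0.26 to 0.75, of Ngfr from -1.02 to -0.73, of Gfra3 from 0.66 to 1.23, of Prx from 0.34 to 0.61 and of Erbin from -0.0013 to 0.059. Fewer calls with 1 library less come with the smaller groups, and the cause of the rest was not tested.

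A fold limit of 2 left 850 genes, 1 member (Sox10), 16 Schwann and glial genes and 7 receptor and ligand genes, so that Mbp (0.80), Pmp22 (0.56) and Ngfr (-0.92) were lost by construction. A limit of adjusted p under 0.01 left 876 genes, 1 member (Ngfr) and 11 Schwann and glial genes, without Sox10 (1.34), Mbp (0.80) and Pmp22 (0.56). Prx passed with the replicate block (0.50, limma adjusted p = 0.00983) and with library total scaling (0.50, 0.0372). The replicate block changed the call of no other member. With a pseudocount of 0.1, no filter, a mean of at least 50, upper quartile scaling and limma-voom the 4 calls among the members stayed 4 (Gfra3 was not tested at a mean of at least 50), and the median of all genes moved by less than 0.1. S100b rested on 29 to 91 estimated reads per library and Gfra3 on 12 to 64, the fewest of the 8 genes.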
